A study of Oryctolagus cuniculus with 30 samples.

Results

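The genes described here encode the nuclear subunits of mitochondrial complexes II, III, IV and V, followed in vocal fold mucosa of rabbits after injury. They were taken as the rows whose symbol begins with SDHA to SDHD, UQCR, COX followed by 4 to 8, or ATP5. This gave 25 genes of 31346 rows, with 4 in complex II, 1 in complex III, 2 in complex IV and 18 in complex V. Many rows carry a gene number in place of a symbol, and a match of these numbers to RefSeq gene identifiers gave 20 more subunits, 7 of complex III and 13 of complex IV. The 25 genes found by symbol and the 20 found by gene number are counted separately, and 45 subunit genes are described in all.

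New Zealand white rabbits formed 5 groups of 3 animals, and both folds of each animal were sequenced, giving 30 libraries from 15 animals. In 4 groups the superficial mucosa of both folds had been stripped. Of these, 3 groups had 20 µL injected into each fold 7 days after injury: type I collagen (Col1), the hydrogel labelled VFLP (man), written VFLP_man, or the hydrogel labelled VFLP (au), written VFLP_au. The hydrogels were derived from vocal fold lamina propria, per the series title. The injury_only group was stripped and had no injection, and the control group was uninjured. Tissue of the injured groups was collected 28 days after treatment, and the labels used here list no time for control. For injury_only the labels do not make clear which day this count starts from. RNA came from dissected mucosa, so each value averages over all cells in the piece.

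The respiratory chain passes electrons from fuel to oxygen across the inner mitochondrial membrane, and ATP synthase uses the resulting proton gradient to make ATP. Complex II is succinate dehydrogenase, which also works in the citric acid cycle. Complex III, the cytochrome bc1 complex, hands electrons to cytochrome c, and complex IV, cytochrome c oxidase, gives them to oxygen. Complex V is ATP synthase. Some complex IV subunits come as paired isoforms: in mammals COX6A2 and COX7A1 are the forms of heart and skeletal muscle, and COX6A1 and COX7A2 are the forms of most other tissues. Skeletal muscle fibres are rich in mitochondria, and the muscle of the vocal fold lies directly under its mucosa.

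Depth ran between 14.2 and 31.9 M gene reads a library, with a median of 22.7 M. Levels are given as CPM, gene counts scaled to a common library total with TMM factors, with both folds of an animal summed. A gene was said to rise or fall where the edgeR quasi-likelihood test gave a Benjamini-Hochberg adjusted p under 0.05 over all genes tested. The summed share of 24 skeletal muscle genes was 1.01 to 2.21% of gene reads in injury_only animals, against 4.62 to 7.39% in control animals, and no gene of that list was at 0 reads in either group. It was 0.312 to 0.870% in Col1, 0.0707 to 0.490% in VFLP_man and 0.648 to 1.48% in VFLP_au. A library from the left fold of control animal 1 stood apart from the other control libraries, with 1.54% muscle reads against 3.96 to 8.89%. Batch C held 6 control and 5 injury_only libraries, and batch D held 1 injury_only library and the 18 injected ones.

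Uninjected injured folds were compared with uninjured folds to see what stripping left behind. Of the 25 genes found by symbol, 24 fell and 1, COX6A1, rose in injury_only animals, where 13.7% of the 17815 genes tested fell and 8.27% rose. The median log2 fold change of the 25 was -1.40, beside 0.02 for all genes tested. Of the 19 tested genes found by gene number, 17 fell and none rose, and COX7A2L and COX8A did not pass the test. In this fit the batch term is set by the single injury_only library of batch D, the right fold of injury_only animal 1. The fold changes therefore rest on the left fold of that animal and on both folds of every other injury_only and control animal. Leaving that library out could hardly change the result and is no separate check. It gave 24 of the 25 lower and 1 higher, at a median of -1.39. The CPM values below sum both folds of each animal, so group means need not match the stated fold changes. In bulk tissue, fewer cells of a type and less RNA per cell cannot be told apart. Skeletal muscle genes moved in the same comparison, with 14 of 24 lower and a median log2 fold change of -2.16.

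**Figure D1:**
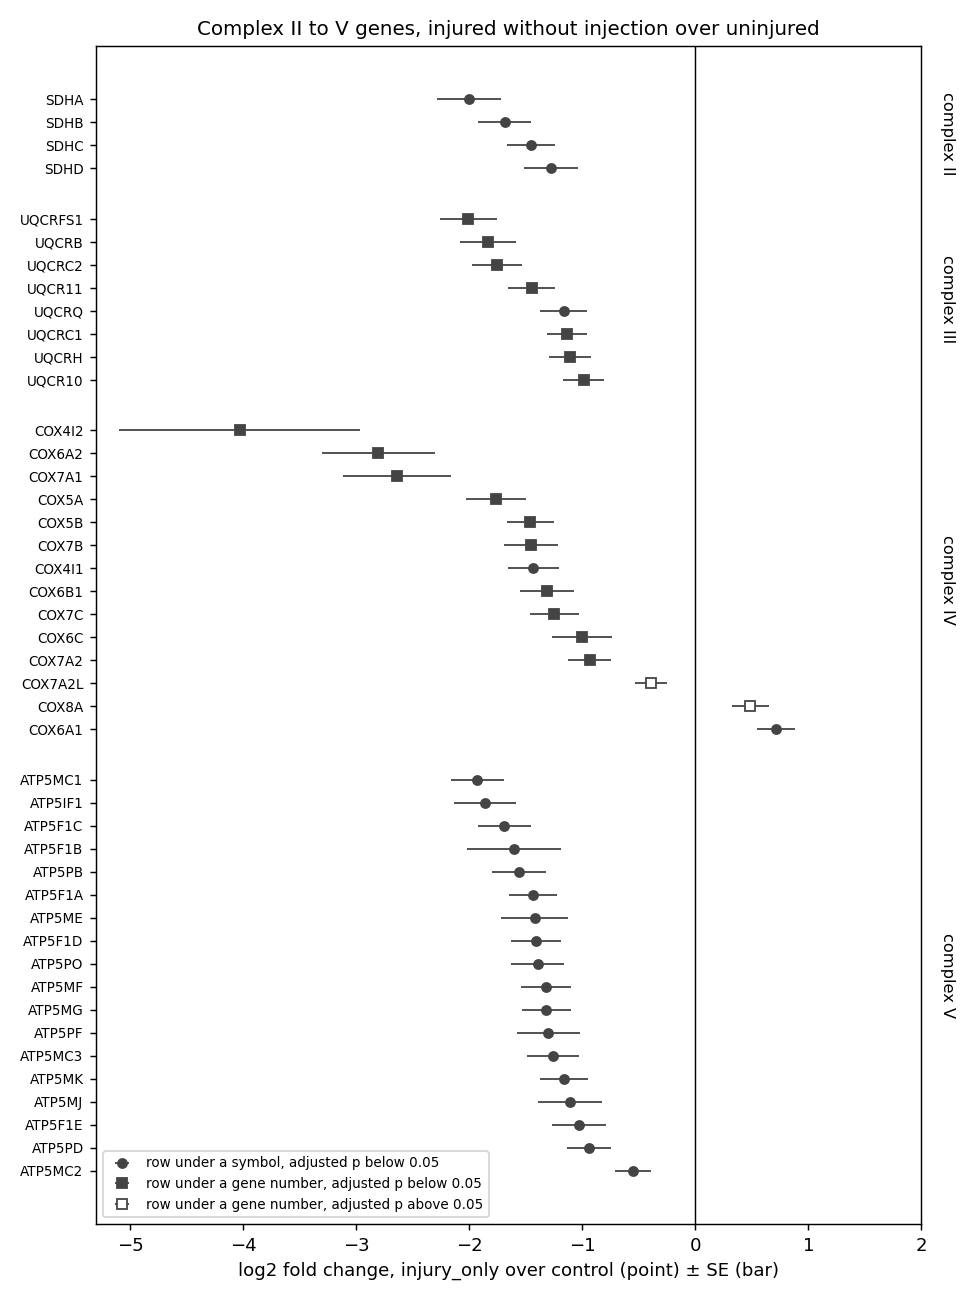
Log2 fold changes of 44 subunit genes in injury_only over control folds (x axis, bars show the standard error), grouped by complex down the page and ordered within it. Filled points passed an adjusted p of 0.05. All points lie left of 0 except COX6A1 at 0.71 and COX8A at 0.49.

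All 4 subunits of complex II fell. SDHA, the catalytic flavoprotein subunit, measured 192, 285 and 282 CPM in the 3 injury_only animals, against 638, 1640 and 1028 CPM in the 3 control animals. Its fall was 4.00-fold (SE 0.28 on the log2 scale, adjusted p = 0.0018 by edgeR), and the groups did not overlap. Overlap of injury_only and control animals was not counted over all genes. Here and below, nothing particular to these genes is read from it. SDHB, the iron-sulphur subunit, measured 68.7, 86.5 and 81.9 CPM in injury_only animals, against 167, 394 and 256 CPM in control animals, and fell 3.22-fold. The membrane anchors changed less. SDHC measured 193, 214 and 199 CPM in injury_only animals, against 387, 799 and 572 CPM in control animals. SDHD measured 78.3, 86.0 and 96.5 CPM in injury_only animals, against 131, 290 and 252 CPM in control animals, a 2.42-fold fall. Control animal 2 was the highest and control animal 1 the lowest for each of the 4 subunits, and these same animals had the highest and the lowest share of muscle reads among the controls.

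All 8 measured subunits of complex III fell, only UQCRQ among them being deposited under a symbol. UQCRFS1, the Rieske iron-sulphur protein, had the largest change in this complex. It measured 125, 166 and 166 CPM in injury_only animals, against 401, 959 and 656 CPM in control animals, a 4.03-fold fall (SE 0.25, adjusted p = 0.0012 by edgeR). UQCRB, a small subunit near the quinone site, measured 51.8, 49.4 and 53.3 CPM in injury_only animals, against 121, 277 and 168 CPM in control animals. Of the core proteins, UQCRC2 fell 3.37-fold and UQCRC1 2.20-fold. UQCRC1 measured 162, 160 and 156 CPM in injury_only animals, against 253, 483 and 361 CPM in control animals. The smallest change was that of UQCR10, which fell 1.98-fold, with 56.4, 67.3 and 58.9 CPM in injury_only animals, against 91.5, 162 and 130 CPM in control animals. For each of these genes the control animals spanned a wider range than the injury_only animals, and the groups did not overlap. Neither was counted over all genes.

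Complex IV was the one complex whose subunits did not all move one way. Of its 14 tested genes, 11 fell, 1 rose and 2 did not pass. The muscle isoforms fell most among those with more than a few reads. COX6A2 measured 13.2, 27.5 and 27.2 CPM in injury_only animals, against 91.0, 267 and 191 CPM in control animals, a 6.98-fold fall (SE 0.50, adjusted p = 0.0035 by edgeR). COX7A1 measured 28.3, 51.4 and 38.7 CPM in injury_only animals, against 156, 449 and 273 CPM in control animals, a 6.23-fold fall (SE 0.47, adjusted p = 0.0037). The groups did not overlap for either gene, and control animal 1 was the lowest control for both. In injury_only animal 1, COX6A2 stood at 24.2 CPM in the left fold, which the fit uses, and at 2.69 CPM in the right. COX7A1 stood at 51.5 and 5.93 CPM in these folds. Their partners took other courses. COX7A2 measured 140, 125 and 134 CPM in injury_only animals, against 191, 341 and 253 CPM in control animals, and fell 1.91-fold. COX6A1 measured 168, 123 and 118 CPM in injury_only animals, against 92.8, 65.3 and 91.2 CPM in control animals. It rose 1.64-fold (SE 0.17, adjusted p = 0.013 by edgeR), with every injury_only animal above every control animal. The rise of COX6A1 no longer passed without injury_only animal 1 (adjusted p = 0.058) or without control animal 2 (adjusted p = 0.066).

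COX8A, the form of subunit 8 found in most tissues, measured 75.2, 71.6 and 57.4 CPM in injury_only animals, against 58.8, 42.7 and 50.8 CPM in control animals. The groups overlapped by 1 injury_only animal, and the log2 fold change of 0.49 (SE 0.16) missed the threshold at an adjusted p of 0.0502 by edgeR, while DESeq2 gave 0.030. COX7A2L, a protein that joins respiratory complexes into larger assemblies, measured 30.9, 26.8 and 26.3 CPM in injury_only animals, against 32.1, 40.6 and 38.7 CPM in control animals (log2 fold change -0.39, adjusted p = 0.066). This was the smallest change of the complex (SE 0.14). COX4I2, a form known from lung, had 5 reads over the 3 injury_only animals, against 67 over the 3 control animals, and fell by the edgeR test (adjusted p = 0.020). It had 33 reads in Col1, 19 in VFLP_man and 14 in VFLP_au, so its level rests on few reads in every group. The remaining 8 subunits, COX4I1, COX5A, COX5B, COX6B1, COX6C, COX7A2, COX7B and COX7C, fell 1.91- to 3.40-fold. COX4I1, the usual form of subunit 4, measured 206, 232 and 223 CPM in injury_only animals, against 399, 916 and 581 CPM in control animals. COX7B2 had 2 reads in injury_only and 0 in control, and was not tested.

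All 18 genes of complex V fell. ATP5F1A, the alpha subunit of the catalytic head, measured 864, 1035 and 1029 CPM in injury_only animals, against 1863, 3755 and 2644 CPM in control animals. It fell by 1.43 on the log2 scale (SE 0.21, adjusted p = 0.0019 by edgeR). ATP5F1B, the beta subunit that carries the catalytic sites, had only 21 to 155 reads a library, against 16294 to 62669 for ATP5F1A. A row under a gene number carries the same RefSeq name and had 20 to 156 reads, so reads shared by near-identical copies may be missing from both, and the 3.04-fold fall of ATP5F1B is uncertain. ATP5IF1, the inhibitor that blocks ATP hydrolysis by the enzyme, measured 85.8, 97.7 and 93.4 CPM in injury_only animals, against 209, 530 and 335 CPM in control animals. It fell 3.64-fold (SE 0.27, adjusted p = 0.0019), the second largest change of the complex after ATP5MC1. Of the central stalk, the gamma subunit gene ATP5F1C fell 3.23-fold, ATP5F1D 2.66-fold and ATP5F1E 2.04-fold. Of the peripheral stalk, ATP5PB fell 2.95-fold, ATP5PO 2.63-fold, ATP5PF 2.46-fold and ATP5PD 1.92-fold. The small membrane subunits ATP5ME, ATP5MF, ATP5MG, ATP5MJ and ATP5MK fell 2.15- to 2.68-fold.

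The c ring of ATP synthase is encoded by 3 genes, ATP5MC1, ATP5MC2 and ATP5MC3, whose mature proteins are identical in mammals and whose import sequences differ. They gave the largest and the smallest change of the complex. ATP5MC1 measured 93.5, 105 and 100.4 CPM in injury_only animals, against 257, 560 and 411 CPM in control animals, a 3.80-fold fall (SE 0.23, adjusted p = 0.0011 by edgeR). ATP5MC2 measured 148, 152 and 159 CPM in injury_only animals, against 180, 285 and 234 CPM in control animals, a 1.46-fold fall (SE 0.16, adjusted p = 0.028). ATP5MC3 lay between them, with a 2.40-fold fall. The groups did not overlap for any of the 3 genes, and control animal 1 was the lowest control for each.

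**Figure D2:**
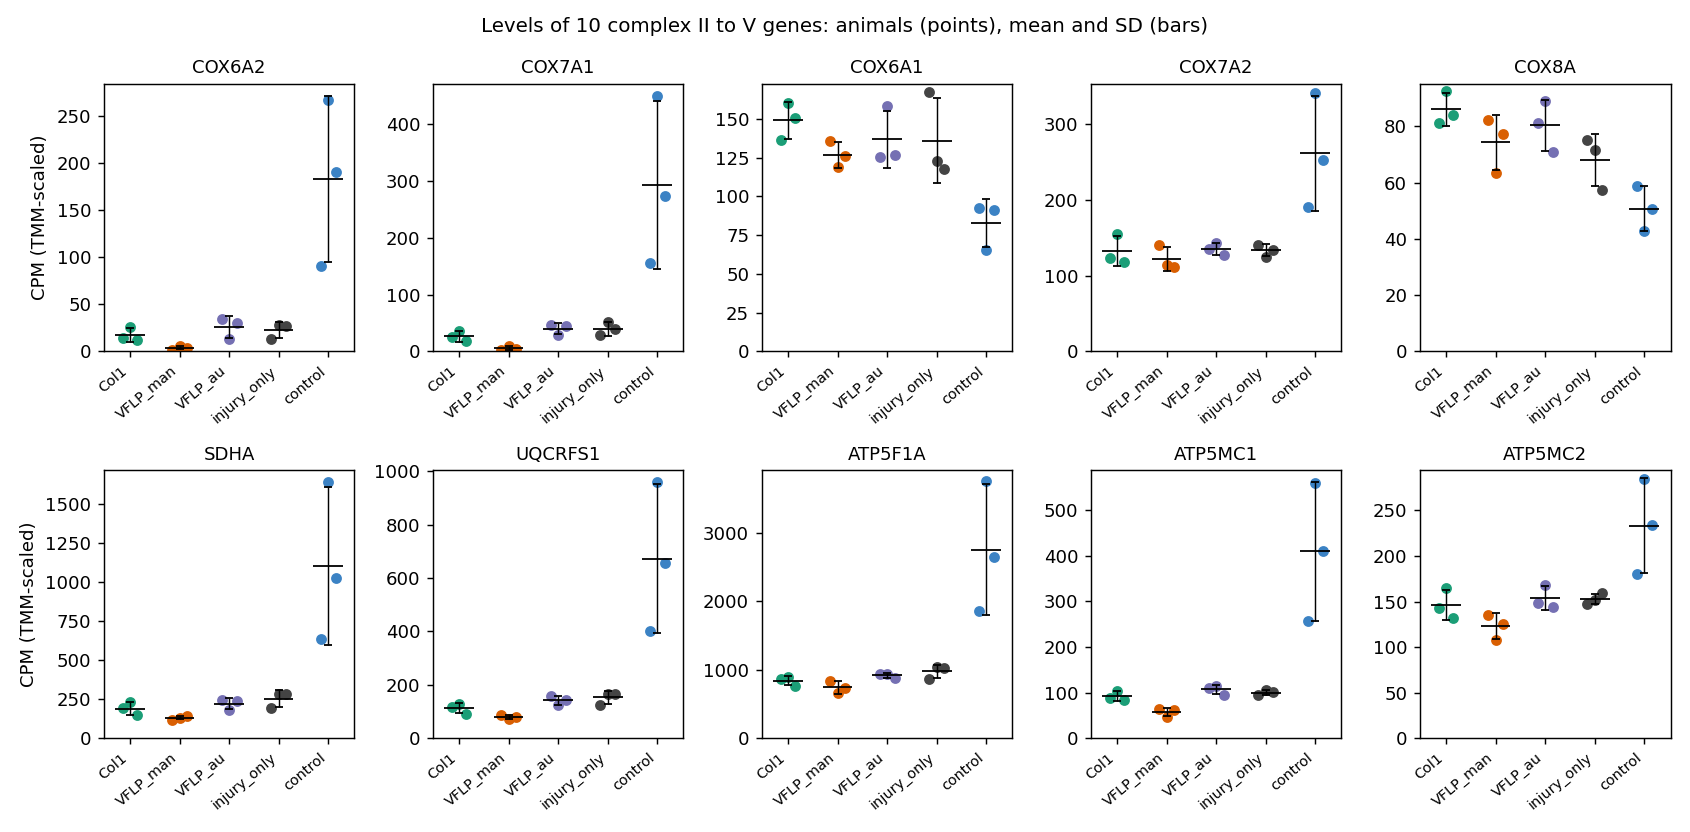
Levels of 10 genes in CPM (y axis, from 0) for every animal of the 5 groups, with the mean as a line and the SD as a bar. COX6A1 and COX8A are lowest in control, and the other 8 genes are highest in control.

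The fall rested on some libraries more than on others. With right folds alone 25 of 25 genes passed, at a median log2 fold change of -1.81. With left folds alone 0 passed, as did 0 of all genes, at a median of -0.89. In that fit 24 of 25 were still below 0, and 19 had an unadjusted p under 0.05. The left fold of control animal 1 lay within the range of the 6 injury_only libraries for 39 of 44 genes. This was not counted over all genes, so nothing particular to these genes is read from it. Without control animal 1, 25 passed at a median of -1.60. Without control animal 2, whose libraries had the highest share of reads mapping to several places, 21 passed at a median of -1.09. With the muscle level as a covariate 1 of 25 genes passed, ATP5MC1, with a median of -1.06 and 19 genes at an unadjusted p under 0.05. Of the genes found by gene number, UQCRC2 and UQCRFS1 passed in that fit, as did 3 of 36 complex I subunits and 3 of 75 mitochondrial ribosomal proteins. Except for left folds alone, the share of all genes passing in these fits is not given here. Nothing particular to these genes is read from the counts. The muscle level did not overlap between these groups, so this fit has little to separate it from the injury.

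Muscle and other isoforms were set against each other as a log2 ratio of reads within each animal, which does not depend on library scaling. The ratio takes no account of gene length, so only its difference between groups is read. The COX6A2 to COX6A1 ratio averaged -3.38 ± 1.32 in the 12 injured animals and 1.02 ± 1.03 in the 3 control animals (SD). The difference was -4.40 (exact permutation test over 455 splits, two-sided p = 0.0022, adjusted over 5 pairs p = 0.0037), which is the smallest p these splits can give. All 12 injured animals lay below all 3 controls. The 12 pool groups with and without injection, and the injected animals are of batch D while the controls are of batch C. Injury, injection and batch cannot be told apart in these pooled p values. The COX7A1 to COX7A2 ratio averaged -2.66 ± 1.36 in injured animals and 0.07 ± 0.34 in control animals, a difference of -2.74 (exact permutation p = 0.0066, adjusted p = 0.0082). Within batch C, injury_only and control animals differed by -3.38 for the first pair and by -1.63 for the second, each at an exact permutation p of 0.1, the smallest that 3 against 3 allows. Here injury_only animal 1 enters by its left fold alone.

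The genes of the c ring gave tighter ratios than the complex IV isoforms. ATP5MC1 to ATP5MC2 averaged -0.73 ± 0.24 in injured animals and 0.77 ± 0.24 in control animals, a difference of -1.49 (exact permutation p = 0.0022, adjusted p = 0.0037). In each of the 12 injured animals ATP5MC1 had fewer reads than ATP5MC2, and in each of the 3 control animals it had more. ATP5MC1 to ATP5MC3 averaged -0.83 ± 0.19 in injured animals and -0.11 ± 0.05 in control animals, with the same p values. Within batch C these differences were -1.33 and -0.65 (exact permutation p = 0.1). The COX4I2 to COX4I1 ratio did not pass, with -11.2 ± 1.62 in injured animals and -9.78 ± 0.26 in control animals (exact permutation p = 0.12), and it rests on few COX4I2 reads.

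**Figure D3:**
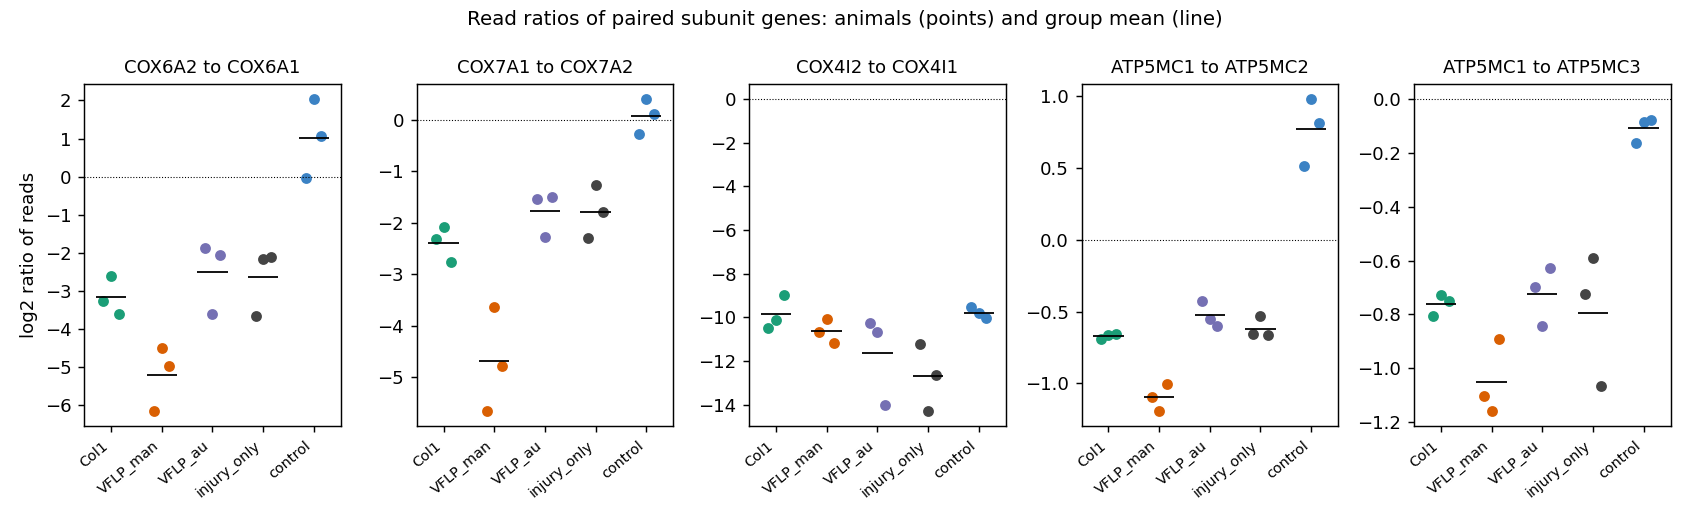
Log2 ratio of reads (y axis, separate for each panel) of 5 gene pairs in every animal, with the group mean as a line and a dotted line at 0 where the genes have equal reads. All injured animals lie below all controls in 4 panels, and VFLP_man animals lie lowest for the COX6A2 and COX7A1 ratios.

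Differences between the folds of 1 animal gave a view of the same genes inside each group. In each animal the fold with more muscle reads was noted, and the number of animals in which it also had the higher CPM was counted. For the 25 genes found by symbol this number had a median of 14 of 15 animals, and for 19 of those found by gene number it was also 14. In 11 genes, among them SDHA, UQCRFS1, COX6A2, COX7A1 and ATP5IF1, the fold with more muscle reads was higher in 15 of 15 animals. COX6A1 was so in 3 of 15 and COX8A in 2 of 15. COX7A2L, at 8 of 15, showed no side. The range within control was wide: COX6A2 measured 25.1 CPM in the left and 172 CPM in the right fold of control animal 1, and COX6A1 measured 109 CPM in the left and 80.4 CPM in the right. In control animal 2, COX8A measured 52.5 CPM in the left and 23.0 CPM in the right fold, where muscle reads made up 6.36 and 8.89%. These counts are descriptions without a test, and all values of a fold share its library. They were not made over all genes, so they do not tell whether these genes differ from others.

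**Figure D4:**
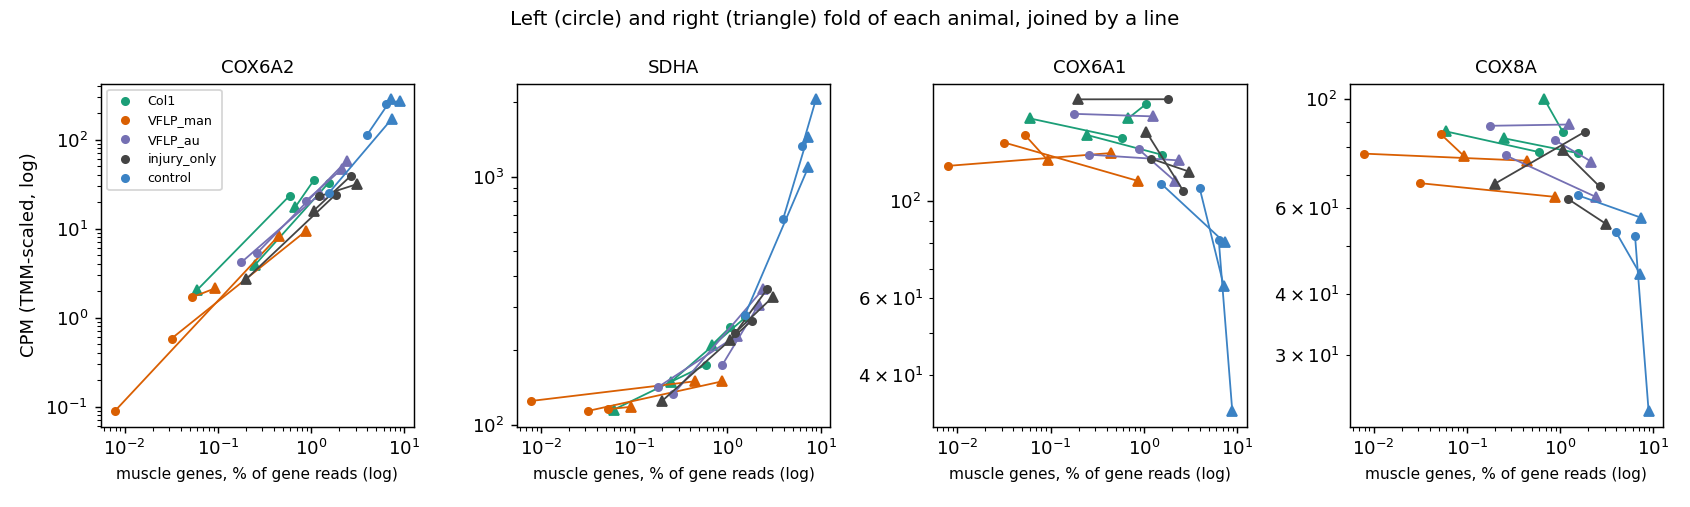
CPM of 4 genes (y axis, log scale) against the share of muscle reads in percent (x axis, log scale) in each fold, with left folds as circles, right folds as triangles and a line joining the folds of an animal. Lines rise for COX6A2 and SDHA and mostly fall for COX6A1 and COX8A.

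Each injected group was also compared with control. Of the 25 genes found by symbol, 24 fell and COX6A1 rose in each of the 3 groups. Among all 17770 genes tested, 18.6% fell and 13.5% rose in Col1, 20.6% fell and 16.8% rose in VFLP_man, and 16.7% fell and 10.8% rose in VFLP_au. The median log2 fold change of the 25 was -1.59 in Col1, -1.90 in VFLP_man and -1.47 in VFLP_au, where the median of all genes stood at 0.12, 0.13 and 0.11. Of the 19 genes found by gene number 16 fell in Col1 and 17 in each VFLP group, and COX8A rose in each. These 3 comparisons share the control animals.

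COX6A1 averaged 149 ± 11.95 CPM in Col1, 127 ± 8.36 in VFLP_man, 137 ± 18.5 in VFLP_au and 83.1 ± 15.5 in control (SD, n = 3 each). The rise over control was 1.79-fold in Col1, 1.53-fold in VFLP_man and 1.65-fold in VFLP_au, with edgeR adjusted p of 0.0031, 0.014 and 0.0094. COX8A averaged 86.0 ± 5.96 CPM in Col1, 74.4 ± 9.81 in VFLP_man, 80.4 ± 9.05 in VFLP_au and 50.7 ± 8.05 in control (n = 3 each). It rose 1.70-, 1.47- and 1.59-fold over control in these groups (edgeR adjusted p = 0.0029, 0.013 and 0.0081). Every injected animal lay above every control animal for both genes, which was not counted over all genes. With the muscle level as a covariate neither passed, and in VFLP_man both log2 fold changes turned below 0, to -0.32 for COX6A1 and -0.46 for COX8A. The muscle level did not overlap between any injected group and control, so this fit has little to separate it from the group.

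The muscle isoforms were lowest in VFLP_man. COX7A1 measured 2.78, 9.18 and 4.02 CPM in the 3 VFLP_man animals, against 156, 449 and 273 CPM in control animals, a 54.8-fold fall (SE 0.57, edgeR adjusted p = 5.4e-05). COX6A2 measured 1.92, 5.30 and 4.04 CPM in VFLP_man animals and fell 48.7-fold (SE 0.61, adjusted p = 7.5e-05). In Col1 the falls were 11.2-fold for COX7A1 and 10.4-fold for COX6A2, and in VFLP_au 7.29- and 7.06-fold. SDHA averaged 189 ± 41.0 CPM in Col1, 130 ± 10.2 in VFLP_man, 221 ± 35.7 in VFLP_au and 1102 ± 505 in control. ATP5F1A averaged 838 ± 64.8 CPM in Col1, 740 ± 90.0 in VFLP_man, 920 ± 35.1 in VFLP_au and 2754 ± 950 in control. The injected groups and control came from different batches, and with a batch term, which rests on a single injury_only library, 0 of 25 genes passed in Col1, 1 in VFLP_man and 0 in VFLP_au. With the muscle level as a covariate 0 of 25 passed in each of these comparisons. Their medians in that fit were -0.93 in Col1, -1.01 in VFLP_man and -0.92 in VFLP_au, and 11, 2 and 13 genes had an unadjusted p under 0.05. Here too the muscle level did not overlap with that of control, which limits this fit in the same way. In the covariate fit 0 of 36 complex I subunits and 0 of 75 mitochondrial ribosomal proteins passed in each comparison. The share of all genes passing with the batch term or the covariate is not given here. Nothing particular to the 25 genes is read from these counts.

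Each injected group was also set against injury_only. All 18 injected libraries are of batch D and 5 of the 6 injury_only libraries of batch C, and the fit has no batch term, so injection and batch can hardly be told apart in these values. None of the 25 genes passed in Col1 (edgeR, 0 at an unadjusted p under 0.05, and 0 by DESeq2), where 0% of 17770 genes passed in either direction, and none passed in VFLP_au (0 at an unadjusted p under 0.05, and 0 by DESeq2), where 0% passed. Their median log2 fold change was -0.14 in Col1 and -0.03 in VFLP_au, and with a batch term it was 0.28 and 0.45. Over all 17770 genes tested, 2524 in Col1 and 2287 in VFLP_au had an unadjusted p under 0.05 by edgeR. SDHA had a log2 fold change of -0.42 (SE 0.29) in Col1 and of -0.19 (SE 0.29) in VFLP_au. An SE of this size leaves room for changes in either direction.

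In VFLP_man none of the 25 passed by edgeR either, where 0.884% of genes fell and 0.0563% rose, while 2 passed by DESeq2. By edgeR 7 of the 25 had an unadjusted p under 0.05, as did 3034 of all 17770 genes tested. All 25 had a log2 fold change below 0, with a median of -0.44 beside 0.00 for all genes. All 25 were also below 0 by DESeq2, with left folds alone and with right folds alone. The direction did not hold with a batch term, where the median was -0.06 and 16 of 25 were below 0. Nor did it hold with the muscle level as a covariate, where the median was 0.04 and 8 of 25 were below 0. The muscle level did not overlap between VFLP_man and injury_only, so the covariate fit has little to separate it from the group. For 20 of them every VFLP_man animal lay below every injury_only animal, as did 13.2% of all genes tested. Of the 19 found by gene number, COX7A1 and COX6A2 fell. COX7A1, at 2.78, 9.18 and 4.02 CPM in VFLP_man animals against 28.3, 51.4 and 38.7 CPM in injury_only animals, fell 7.40-fold (SE 0.50, edgeR adjusted p = 0.044). COX6A2, at 1.92, 5.30 and 4.04 CPM in VFLP_man animals against 13.2, 27.5 and 27.2 CPM in injury_only animals, fell 6.03-fold (SE 0.54, adjusted p = 0.048). With a batch term, which rests on a single injury_only library, neither passed, at log2 fold changes of -0.12 for COX7A1 and 0.52 for COX6A2. SDHA did not pass, with a log2 fold change of -0.96 (SE 0.29, adjusted p = 0.13), and neither did UQCRFS1 at -0.94 (SE 0.26, adjusted p = 0.098) or ATP5MC1 at -0.79 (SE 0.23, adjusted p = 0.11). Both calls were lost when VFLP_man animal 1 or 3 or injury_only animal 2 or 3 was left out (adjusted p of 0.088 to 0.18), and with right folds alone. Over all alternative settings, the COX7A1 result stayed the same in 10 and was weaker in 9. The COX6A2 result stayed the same in 8, was weaker in 10 and was reversed in 1. Muscle genes moved here too, with 7 of 24 lower, and with the muscle level as a covariate the log2 fold changes were -0.63 for COX7A1 and -0.05 for COX6A2.

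A test over the 3 injected groups gave none of the 25 genes (edgeR, 0% of 17815 genes), with 2 at an unadjusted p under 0.05 and 0 by DESeq2. Of the 19 genes found by gene number, 0 passed by edgeR and 2 by DESeq2. COX7A1 and COX6A2 had the smallest p, each at an edgeR adjusted p of 0.18.

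Genes that work beside these complexes were followed from lists. In injury_only against control, 3 of 3 further genes fell, CYC1 (cytochrome c1 of complex III) by 3.20-fold, CYCS (cytochrome c) by 3.50-fold and NDUFA4 (now placed in complex IV) by 2.96-fold. Of 36 complex I subunits 33 fell, with a median log2 fold change of -1.32, among them NDUFS7 by 4.31-fold. All 15 genes of the citric acid cycle fell, with a median of -1.54, including PDHA1 (pyruvate dehydrogenase) by 3.42-fold. Of the 7 energy carriers 6 fell. The muscle form of the ATP carrier, SLC25A4, fell 6.68-fold (SE 0.32, edgeR adjusted p = 0.0011), a size near that of COX7A1 and COX6A2.

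Genes that build mitochondria changed less by the median of each list, though single genes fell further. Of 30 assembly factors of the complexes 16 fell and 1 rose, with a median of -0.77, and UQCC1, which helps to build complex III, fell 3.04-fold. Of 75 mitochondrial ribosomal proteins 47 fell, with a median of -0.60. Of 9 import proteins and chaperones 6 fell, with a median of -0.65 and a range of -8.90 to -0.32. Of 11 regulators 6 fell, with a median of -0.90 and a range of -2.835 to 0.01. Among them were TFAM, which maintains mitochondrial DNA, by 1.87-fold and ESRRA, a nuclear receptor of mitochondrial genes, by 2.10-fold. Each of these medians lies nearer to 0 than the -1.40 of the 25 genes, a difference that was not tested.

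Marker lists of other cells were counted in the same comparison, where 13.7% of all genes fell and 8.27% rose. Of 10 fibroblast genes 4 fell, of 10 endothelial genes 3 fell, and of 4 tested adipocyte genes 1 fell, with CIDEC and UCP1 at 0 reads in both groups. Of 8 tested secretory genes 3 rose, of 9 ciliated genes 1 rose and of 10 leukocyte genes 3 rose, while none of 9 squamous genes passed. Counts of 1 gene in so short a list lie near the share of all genes, and nothing is read from them. The lists moved further than these counts show. Every fibroblast and endothelial gene had a log2 fold change below 0, at medians of -1.175 and -1.13. Every tested secretory, ciliated and leukocyte gene lay above 0, at medians of 2.353, 3.67 and 1.122, though most of these genes did not pass. The median was -0.1622 for the squamous list, beside 0.02 for all genes tested. The summed share of secretory genes was 1.09 to 1.90% of gene reads in injury_only animals, against 0.0132 to 0.289% in control animals, and MUC5AC had 0 reads in control. The part of these cells in the result was not tested.

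Likeness of pattern was measured as Pearson's r of log2 CPM over the 15 animals, among genes with a symbol, deposited or matched through RefSeq, and a mean of at least 1 CPM. Among the genes most like COX6A2 were DUSP26, ABRA, FXYD1 and SHOX2 (r of 0.990 to 0.993), and COX7A1 was most like ESRRB, GRIP2, DUSP26, SHOX2 and RPL3L (0.992 to 0.994). COX7A2 was most like PSMC5, COX7B, NDUFV2, SAMM50 and SUCLG1 (0.981 to 0.986). Of these 5, COX7B, NDUFV2, SAMM50 and SUCLG1 belong to mitochondria. The animals share the split between control and injured groups, and these values are descriptions.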

How the data were processed

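RNA sequencing counts of 30 libraries were used. Per the labels, the library kit was KAPA mRNA HyperPrep, read as stranded here. The authors deposited raw counts of reads per gene, made with STAR 2.7.10b per the submitters' processing notes. The genome build is not given in the sources used here, nor is the annotation. Counts on the second-read strand were taken. The 4 entries that name no gene took 23.2 to 44.7% of reads and were left out. Of 14615 gene numbers, 521 were named through RefSeq gene identifiers (mOryCun1.1 table, names only).

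Folds of an animal were summed, except for 1 injury_only animal in the fits with a batch term. Tests used R 4.3.3 with edgeR 4.0.16 (robust quasi-likelihood F test, TMM factors, filterByExpr at a minimum count of 10), with Benjamini-Hochberg adjustment over all genes tested and 0.05 as the threshold. Injury_only against control and the test over the injected groups used 16 units with a batch term, that animal giving 1 unit to each batch. Its unit of batch D is taken up by the batch term, so injury_only against control uses only the left fold of that animal. For injected groups against injury_only or control, 15 animals were fitted and no batch term was used. SE is the absolute log2 fold change over the square root of F, an approximation. Log2 CPM used a prior count of 2, and 0.5 was added to counts before a ratio. The edgeR fits were also run on simulated counts of independent units with no batch effect. The outcome is not given here, and nothing is read from it. Folds of an animal are not independent, and p values measure the spread between animals. In the fits with a batch term that animal adds to this spread by its left fold alone.

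Alternatives were DESeq2 1.42.0, its size factors, no filter, a replicate block, 30 libraries by limma 3.58.1 voom, either fold alone, each animal left out, unstranded counts, the muscle level as a covariate, the batch choice turned round and omission of the batch D injury_only library. Omission of the control library of lowest depth and scaling without mitochondrial and muscle genes were added after the data were seen. The members and lists were chosen with earlier results of these data known. Named genes are all of complex II, the isoform pairs, UQCRC1, UQCRFS1, ATP5F1A, ATP5F1B, ATP5IF1, the 2 largest and the smallest change per complex, those moving against the rest, and up to 4 of smallest p per list. Results of some genes this rule takes are left out.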

Additional observations from a re-analysis of the deposited data

How the results depend on the processing

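Of the 25 genes found by symbol, the number past the threshold for injury_only against control was 0 with left folds alone and 1 with the muscle level as a covariate, against 25; with each animal left out in turn it was 21 to 25. For Col1 against control it was 0 with left folds alone, 0 with the batch term and 0 with the muscle covariate. For VFLP_man against control it was 1 with the batch term and 0 with the muscle covariate, and for VFLP_au against control 0 and 0. For VFLP_man against injury_only it was 2 by DESeq2, against 0. The cause of these changes was not tested. These counts stand without the share of all genes in the same setting, so nothing particular to the 25 genes is read from them. Other settings moved these counts by less than 1.5 times.

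Log2 ratios lost their call within batch C, where the exact permutation test of 3 against 3 animals cannot go below p = 0.1: the differences were -3.38 (COX6A2 to COX6A1), -1.63 (COX7A1 to COX7A2), -1.33 (ATP5MC1 to ATP5MC2) and -0.65 (ATP5MC1 to ATP5MC3). With left folds alone the first was -4.05 (adjusted exact permutation p = 0.059) and the second -2.54 (adjusted exact permutation p = 0.060).

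Among the 8 genes followed singly, signs turned for COX6A1 (-0.32) and COX8A (-0.46) in VFLP_man against control with the muscle covariate. With batch handled the other way they turned for COX6A2 in VFLP_man against injury_only (0.52) and, in VFLP_au against control, for COX6A2 (0.50) and COX7A1 (0.15). Over all settings together, the sign turned at least once for 23 of the 25 genes found by symbol in Col1, 21 in VFLP_man and 25 in VFLP_au against injury_only, and for 0, 1 and 0 of them against control. It turned for 0 of the 25 in injury_only against control. In VFLP_man against injury_only the turns came with the batch term (9 genes), with the muscle covariate (17) and without injury_only animal 1 (1).

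With the replicate block, 25 genes passed for injury_only against control, and no count of the 25 changed in any comparison. Replicate numbers name different animals, and deviations of same-numbered animals correlated over 0.1 in 8 of 30 pairs (median -0.02), with 3 of 15 animals closest to their own number. Low counts limit COX4I2 and ATP5F1B.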
